A study of Mus musculus with 9 samples.

Results

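The mitochondrial ribosomal protein genes were taken as the protein-coding genes whose symbol has the form Mrpl or Mrps followed by a number and at most 1 letter, and 78 of the 49671 genes in the count files met that rule. Their products are the protein part of the mitoribosome. They are encoded in the nucleus, made in the cytosol and imported into mitochondria, where they join 2 ribosomal RNAs of the mitochondrial genome. The finished particle translates the few messages of that genome, all of which encode core subunits of the respiratory chain and ATP synthase. Some of these proteins descend from bacterial ribosomal proteins, and others were added to the particle in mitochondria. Quiescent stem cells of several tissues are known for low rates of cytosolic translation and for relying less on respiration than their dividing progeny.

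RNA was sequenced from dermal KIT+ CD45- cells of female C57BL/6 mice, KIT being a receptor of the melanocyte lineage and CD45 an immune marker. The stages were melanoblasts at postnatal day 0.5 (n = 3 libraries), adult quiescent melanocyte stem cells (McSC) at 8 weeks (n = 4) and aged McSC at 24 months (n = 2). Both McSC stages were taken in telogen, when hair follicles rest. Each library pools several animals, so the spread between libraries is a spread between pools. Only the aged mice were brought in from an outside colony, when 21 months old, the others being bred by the authors, and the effects of age and of colony cannot be told apart. No allele, transgene or drug was used in any group.

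Levels are given as CPM, counts relative to the library size, with library sizes scaled by trimmed-mean (TMM) factors. Library totals ran from 12594770 to 33710117 counts, and the 2 mitochondrial rRNAs took 21.5% to 37.6% of them. A library held 8127 to 27208 counts on the members, and its median member had 80.5 to 306 counts. Of the 9 melanocyte lineage markers all were detected in each group, and their summed level was 4174 to 10441 CPM in adult McSC and 13959 to 25595 CPM in melanoblasts. In libraries of sorted but pooled cells, fewer cells of a type and less RNA per cell cannot be told apart.

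Of the 78 members, 76 passed the filter on low counts. Mrpl53, a large subunit protein added in mitochondria, had 0 counts in all 9 libraries. That allows at most 0.0890 to 0.238 CPM before scaling (3 counts per library, covering counting error only). Exons of other genes cover 88.0% of the exons of Mrpl53, 88.0% on the same strand. Mrps34, a small subunit protein added in mitochondria, had 0 to 4 counts per library, and 77.8% of its exons are shared with Mapk8ip3 and Nme3. Nme3 itself was at 0 in all 9 libraries. The low values of Mrpl53 and Mrps34 therefore sit on the 2 gene models with the largest exon overlap among the members, and whether reads were dropped there was not tested. Another 31 members share some exon sequence with a neighbour, and 10 of the 78 share more than 20% of it.

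Levels of different members were compared per kilobase of exon, as CPM per kb. Mrpl36, the counterpart of a small zinc-binding bacterial protein, was the most abundant member at each stage, with 35.5 ± 12.4 CPM per kb in melanoblasts (SD, n = 3), 12.3 ± 3.00 in adult McSC (SD, n = 4) and 6.28 ± 2.25 in aged McSC (SD, n = 2). Mrpl52 followed in melanoblasts and adult McSC, at 18.7 ± 5.76 and 10.0 ± 1.56 CPM per kb, and was the 9th member in aged McSC at 3.86 ± 0.0645. The next 3 by the mean of the stages were Mrpl49, Mrps21 and Mrpl18, with means of 9.33, 9.28 and 8.70 CPM per kb, which differ by less than their spread. At the other end of the tested members stood Mrps16, the counterpart of a bacterial small subunit protein, with a mean of 1.01 CPM per kb, nearly level with Mrps18b, also at 1.01 CPM per kb. Mrps18b was the lower of the pair in melanoblasts, at 1.15 ± 0.510 CPM per kb (SD, n = 3) against 1.56 ± 0.400 for Mrps16, and these differ by less than their spread. With the longest transcript in place of the exon union, Mrpl36 was again the most abundant and Mrps16 the lowest tested member. The order of the 78 members was similar between stages, with a Spearman rho across genes of 0.897 between adult McSC and melanoblasts and 0.935 between aged and adult McSC. Genes are not independent replicates, and each of these values rests on the same libraries for all members.

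The comparison of adult McSC with melanoblasts sets the resting stem cell against its dividing precursor. With TMM factors, 51 of the 76 tested members were lower in adult McSC and 0 were higher by edgeR's quasi-likelihood test at an adjusted p of 0.05 (59 at an unadjusted p under 0.05, against 44.7% of all genes). Over all 31961 genes tested, 18.3% were lower and 15.1% higher. In the abundance range of the members, which holds 10711 genes, 25.4% were lower. Without melanoblast replicate 2 the count fell to 33 members lower, and the share of all genes lower to 14.9%. The median log2 fold change of the members was -1.04, against 0.39 over all genes tested and -0.11 over the genes in that abundance range. For 54 members every adult library lay below every melanoblast library in TMM-scaled CPM, against 19.8% of all genes and 28% of those in the abundance range.

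The number of calls depended on how libraries were put on one scale. With factors computed on abundant genes only, 6 members were lower and 4 higher, against 5.36% of all genes lower and 34.5% higher. With totals of nuclear genes and no further factor, 9 were lower and 3 higher, against 7.81% of all genes lower and 27.9% higher. The 6 and 9 of 76 are thus near the shares of all genes lower, and the counts higher are below theirs. Mrpl17, Mrpl33 and Mrps6 were higher under both and Mrps5 under the first, Mrps5 and Mrps6 being named after their values were seen. These scalings moved the median of all genes tested to 1.20 and 0.99, and the members' median to -0.20 and -0.385. A change of factors shifts all genes nearly alike, so the distance of the members' median from that of all genes is kept by construction, at -1.43 with TMM, -1.405 with abundant-gene factors and -1.38 with nuclear totals. When only genes with at least 5 CPM in at least 2 libraries were kept, 24 of 65 members were lower and 0 higher, against 24.5% of all genes lower and 25.9% higher. The median was then -0.52, which is -0.57 relative to all genes tested. Summed, the members took 0.103%, 0.100%, 0.111% and 0.113% of the nuclear counts in adult McSC, against 0.123%, 0.138% and 0.129% in melanoblasts. Such shares put libraries on nearly the same scale as the nuclear totals above. These shares do not overlap between the groups.

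**Figure D1:**
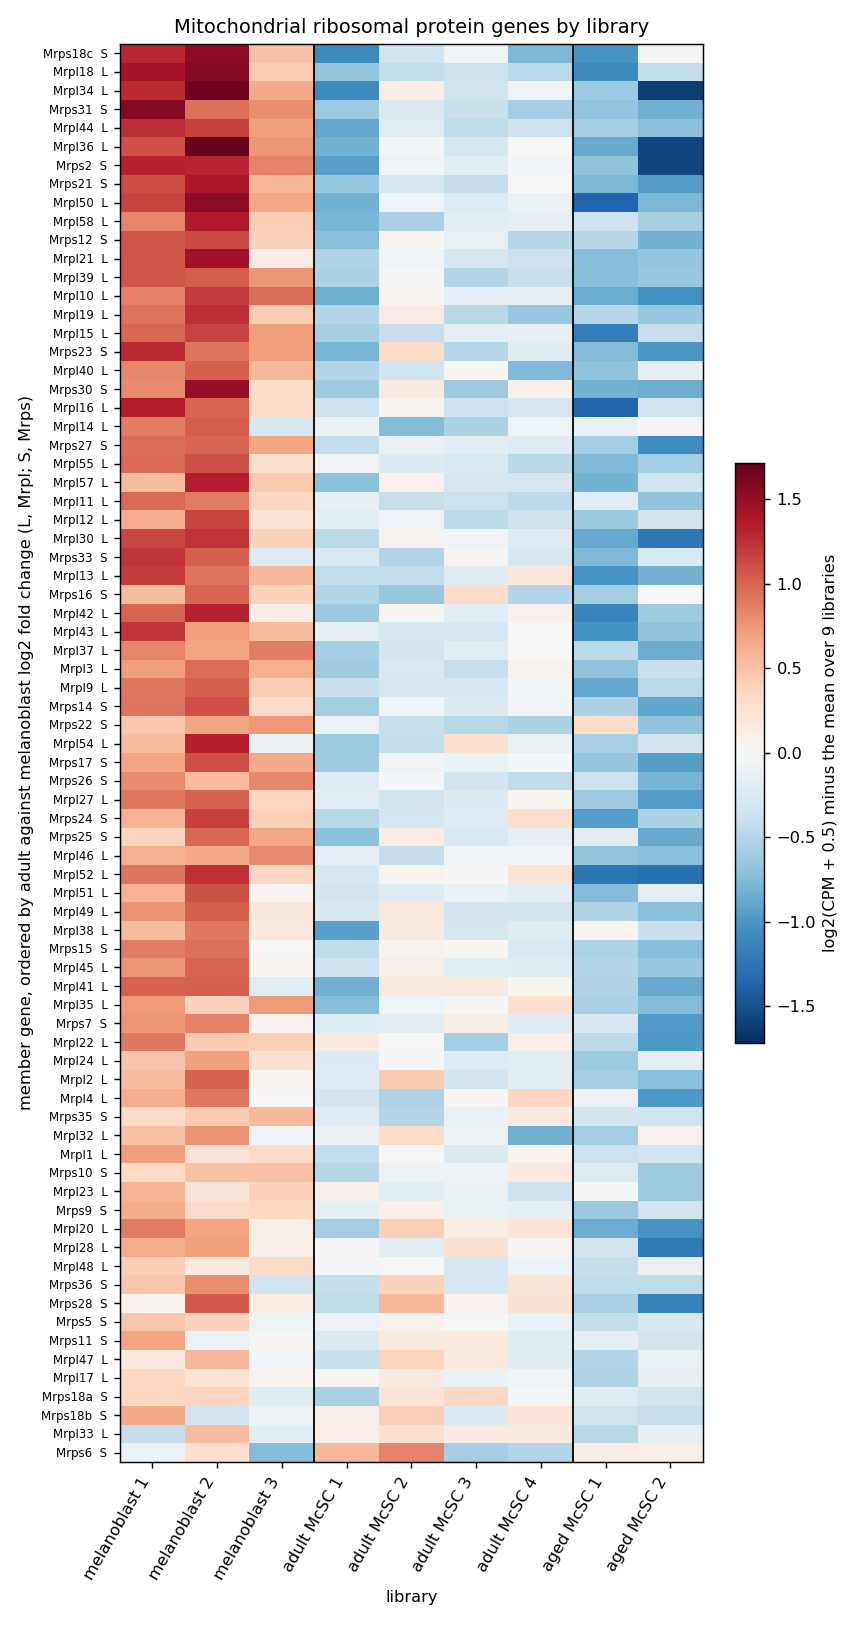
Each row is one of the 76 tested members and each column a library, coloured by log2(CPM + 0.5) minus the mean of the row over the 9 libraries, with stages separated by black lines and members ordered by adult against melanoblast log2 fold change. The red block of melanoblast libraries 1 and 2 is paler in library 3, and 51 members are lower in adult McSC by the edgeR test.

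**Figure D2:**
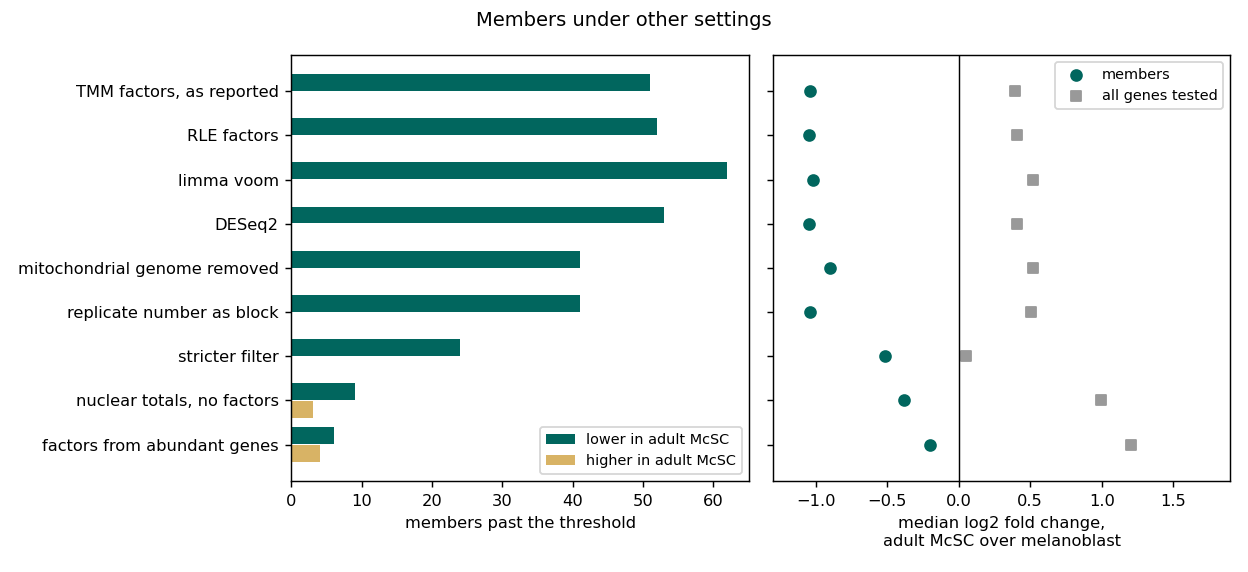
The left panel counts members past an adjusted p of 0.05 in adult McSC against melanoblasts under 9 settings, and the right panel plots the median log2 fold change of the members (circles) and of all genes tested (squares). Calls run from 62 lower with limma voom to 6 lower and 4 higher with factors from abundant genes. Of all genes, 22.7% are lower with limma voom, and 5.36% lower and 34.5% higher with those factors. In each setting the members' median lies left of that of all genes.

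Other properties of the libraries moved with the members. Counts on 1432 olfactory and vomeronasal receptor genes, which are known from sensory neurons, came to 933 to 2149 ppm of nuclear counts in adult McSC and 264 to 549 ppm in melanoblasts. The median member level was 2.60, 3.13, 2.79 and 2.78 log2 CPM in adult McSC and 3.79, 4.02 and 3.35 in melanoblasts. On this TMM scale adult replicate 2, with the fewest receptor counts of its group, had the highest members. Melanoblast replicate 3, with the most receptor counts of its group, had the lowest. As shares of nuclear counts the order differed. The members' share in adult replicate 2 was the lowest of its group (0.100%). That of melanoblast replicate 3 (0.129%) lay between those of replicates 1 and 2 (0.123% and 0.138%). Of the 9 melanocyte lineage markers, 8 were lower in adult McSC with TMM factors (median log2 fold change -1.51) and 7 with abundant-gene factors. All 4 proliferation markers were lower in adult McSC, at 112 to 150 CPM in sum against 2502 to 3616 CPM in melanoblasts. Of the 8 keratinocyte markers, 7 were higher, with sums of 1527 to 2664 CPM in adult McSC and 308 to 680 CPM in melanoblasts, and none was at 0 throughout. Of the 6 Schwann cell markers, 3 were higher, with sums of 520 to 763 CPM in adult McSC and 204 to 295 CPM in melanoblasts. Among endothelial markers 3 of 5 were higher, with sums of 51.9 to 198 CPM in adult McSC and 34.5 to 73.4 CPM in melanoblasts, and among macrophage and dendritic markers 2 of 6 were higher, with sums of 32.8 to 50.2 CPM in adult McSC and 21.9 to 37.2 CPM in melanoblasts. Fibroblast markers had 3 of 6 lower and 1 higher, with sums of 462 to 925 CPM in adult McSC and 541 to 2046 CPM in melanoblasts, and mast cell markers 2 of 5 lower, with sums of 5.08 to 7.72 CPM in adult McSC and 17.7 to 28.9 CPM in melanoblasts. Of 5 T and NK cell and 4 erythroid markers 0 passed by edgeR (3 and 1 at an unadjusted p under 0.05). The part of these differences in the members' result was not tested.

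With TMM factors the calls came from both subunits. Of all genes tested, 18.3% were lower with TMM factors, and 5.36% were lower and 34.5% higher with abundant-gene factors. In the large subunit, which holds the catalytic centre, 34 of 50 tested members were lower with TMM factors (median -1.08), and 5 lower and 2 higher with abundant-gene factors. In the small subunit, which reads the message, the counts were 17 of 25 with TMM (median -1.03), and 1 lower and 2 higher with abundant-gene factors. Mrps18a and Mrps30 belong to the large subunit despite their symbols. Members with a bacterial counterpart had a median of -1.03 (26 of 45 lower) and those classed as mitochondria-specific -1.05 (24 of 29 lower). The latter class includes Mrps18a and Mrps18b, neither of them lower, which descend from a bacterial protein but do not hold its place. The summed small subunit counts were 0.405 to 0.431 of the summed large subunit counts in adult McSC and 0.381 to 0.433 in melanoblasts, ranges that overlap.

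**Figure D3:**
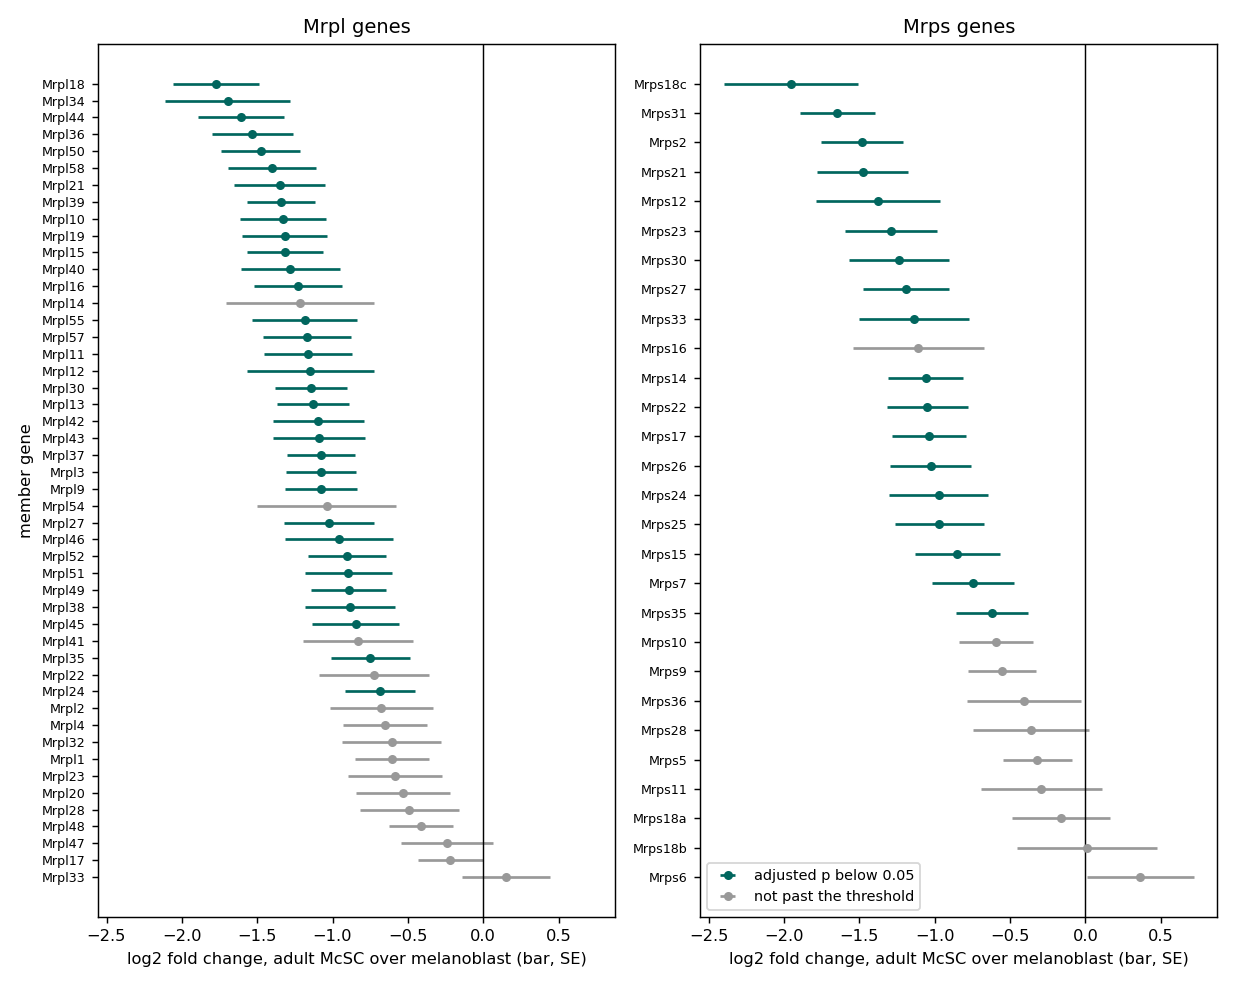
Points give each tested member's log2 fold change of adult McSC over melanoblasts with TMM factors, with bars for the SE, split by symbol into Mrpl (left) and Mrps (right) genes; green points passed an adjusted p of 0.05 and grey ones did not. Values run from -1.96 for Mrps18c to 0.36 for Mrps6, and no point right of 0 is green.

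Among the large subunit members, Mrpl18, whose bacterial counterpart binds a ribosomal RNA that the mammalian mitoribosome lacks, had 6.04, 7.23, 7.51 and 6.99 CPM in adult McSC, against 27.4, 30.3 and 13.5 CPM in melanoblasts. All adult libraries lay below the lowest melanoblast library, which was replicate 3. The log2 fold change of Mrpl18 was -1.77 (SE 0.283, adjusted p = 3.43e-05), and -0.88 with abundant-gene factors (adjusted p = 0.0155). The gene lies on chromosome 17 from 12911349 to 12916345, minus strand (mm10).

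Mrpl36 had 9.51, 16.6, 13.7 and 17.1 CPM in adult McSC, against 37.2, 57.1 and 29.2 CPM in melanoblasts, with no overlap. Its log2 fold change was -1.53 (SE 0.270, adjusted p = 0.000110). Mrpl44, an RNase III-like protein of the large subunit, had 3.47 to 5.86 CPM in adult McSC and 11.3 to 17.1 CPM in melanoblasts (log2 fold change -1.61, SE 0.287, adjusted p = 0.000127). Mrpl34, the counterpart of a bacterial protein of the same number, averaged 2.66 ± 1.03 CPM in adult McSC (SD, n = 4) and 8.62 ± 3.08 CPM in melanoblasts (SD, n = 3), 3.24-fold lower with TMM factors and not past the threshold with abundant-gene factors (adjusted p = 0.131). The 6 members lower in each of the 21 settings, scalings included, were Mrpl18, Mrpl36, Mrpl44, Mrpl39, Mrpl50 and the small subunit member Mrps31. They are the same 6 that were lower with abundant-gene factors, where 5.36% of all genes were lower. The share of all genes lower in every setting was not computed, and the settings reuse the same libraries. Mrpl39 and Mrpl50 are named here after their values were seen.

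The stalk of the large subunit, which recruits translation factors, is built on Mrpl10, Mrpl11 and Mrpl12. Mrpl10 averaged 5.78 ± 1.51 CPM in adult McSC (SD, n = 4) and 14.5 ± 1.89 CPM in melanoblasts (SD, n = 3), a log2 fold change of -1.33 (adjusted p = 0.000920). Mrpl11 averaged 5.32 ± 0.575 CPM in adult McSC and 11.9 ± 2.62 CPM in melanoblasts, a log2 fold change of -1.16 (adjusted p = 0.00324). Mrpl12 averaged 1.99 ± 0.293 CPM in adult McSC and 4.42 ± 1.59 CPM in melanoblasts, a log2 fold change of -1.15 (adjusted p = 0.0389). The 3 stalk genes thus passed with TMM factors, with Mrpl12 nearest the threshold, and 12 of the other settings ended its call. With abundant-gene factors Mrpl10 was at -0.52 (adjusted p = 0.146) and Mrpl11 at -0.28 (adjusted p = 0.463), and with nuclear totals neither passed (adjusted p = 0.0680 and 0.218). Mrpl58, a release factor homologue that rescues stalled mitoribosomes, had 4.36 to 6.99 CPM in adult McSC and 10.8 to 21.1 CPM in melanoblasts (log2 fold change -1.40, adjusted p = 0.000593), and did not pass with abundant-gene factors (-0.53, adjusted p = 0.146).

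In the small subunit, Mrps31, a protein added in mitochondria, had 7.75, 10.3, 9.29 and 8.03 CPM in adult McSC, against 37.4, 24.1 and 21.6 CPM in melanoblasts. The groups were far apart, and its log2 fold change was -1.65 (SE 0.248, adjusted p = 1.70e-05). Mrps2 had 6.04 to 11.7 CPM in adult McSC and 22.0 to 30.8 CPM in melanoblasts (log2 fold change -1.48, adjusted p = 0.000184). Mrps21 had 3.58 to 5.87 CPM in adult McSC and 9.03 to 16.2 CPM in melanoblasts (log2 fold change -1.48, adjusted p = 0.000550). Both are counterparts of bacterial proteins of the same number, and neither passed with abundant-gene factors (adjusted p = 0.0585 and 0.112). With nuclear totals Mrps2 passed by edgeR (adjusted p = 0.0266) and Mrps21 did not (adjusted p = 0.0508).

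The 3 Mrps18 paralogues gave unlike values. All descend from one bacterial small subunit protein: Mrps18c holds its place in the small subunit, Mrps18b sits elsewhere in the small subunit and Mrps18a in the large subunit. Their promoter windows, from 250 bases before to 50 after the RefSeq transcription start (GRCm38.p6), are shown because the genes share an origin. Capitals mark matches, on either strand, to 7 motifs. The letters searched were CGCATGCG for NRF1, CCGGAAGT for the ETS family, AAGATGGC for YY1, CACGTG for the E-box and GGGCGG for SP1. The CCAAT box was searched by those letters, and TATAAA stood for the TATA box. Mrps18c is at chr5:100798509-100798808 on the plus strand, Mrps18b at chr17:35916391-35916690 on the minus strand and Mrps18a at chr17:46110754-46111053 on the plus strand.
Mrps18c: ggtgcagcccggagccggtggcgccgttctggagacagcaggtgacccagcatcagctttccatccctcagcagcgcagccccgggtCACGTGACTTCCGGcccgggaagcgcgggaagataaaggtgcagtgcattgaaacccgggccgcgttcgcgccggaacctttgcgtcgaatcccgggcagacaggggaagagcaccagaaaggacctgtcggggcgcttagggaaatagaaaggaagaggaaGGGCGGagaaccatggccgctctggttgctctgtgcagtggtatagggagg
Mrps18b: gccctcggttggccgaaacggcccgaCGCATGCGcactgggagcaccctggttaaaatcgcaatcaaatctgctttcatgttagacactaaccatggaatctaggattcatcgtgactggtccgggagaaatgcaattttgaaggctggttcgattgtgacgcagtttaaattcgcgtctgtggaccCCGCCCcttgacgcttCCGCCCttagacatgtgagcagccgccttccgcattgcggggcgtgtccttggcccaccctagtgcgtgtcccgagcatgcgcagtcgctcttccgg
Mrps18a: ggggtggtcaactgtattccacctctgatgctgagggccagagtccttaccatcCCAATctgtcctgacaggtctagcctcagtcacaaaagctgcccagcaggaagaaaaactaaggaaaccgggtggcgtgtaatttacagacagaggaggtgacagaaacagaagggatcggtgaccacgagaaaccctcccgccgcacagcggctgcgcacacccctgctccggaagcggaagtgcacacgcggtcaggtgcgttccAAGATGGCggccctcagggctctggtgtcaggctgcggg
The Mrps18c window holds an E-box directly followed by an ETS match that begins 157 bases before the start. The Mrps18b window holds an NRF1 match that begins 224 bases before the start and 2 SP1 matches, and the Mrps18a window a YY1 match that begins 11 bases after it. These matches are letters in a window and were not tested as binding sites.

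Mrps18c had 0.974, 1.97, 2.48 and 1.33 CPM in adult McSC, against 7.16, 8.60 and 3.91 CPM in melanoblasts. Each adult library was below each melanoblast library, and the log2 fold change of -1.96 (SE 0.445, adjusted p = 0.00147) was the largest fall of the 76 members with TMM factors. It was -1.08 with abundant-gene factors (adjusted p = 0.0788) and -1.26 with nuclear totals (adjusted p = 0.047 by edgeR). Mrps18b had 2.30, 2.99, 1.73 and 2.58 CPM in adult McSC, against 3.61, 1.62 and 1.96 CPM in melanoblasts. Mrps18a had 3.78, 6.93, 7.55 and 5.66 CPM in adult McSC, against 7.53, 7.61 and 4.97 CPM in melanoblasts. The groups of both overlapped, with log2 fold changes of 0.0090 for Mrps18b (SE 0.465) and -0.16 for Mrps18a (SE 0.326) that did not pass. The difference between the paralogues was not itself tested. Exons of Mrps18c and Mrps18b are covered by Gm43511 for 23.2% and by Gm16279 for 30.5%, so their counts are uncertain.

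**Figure D4:**
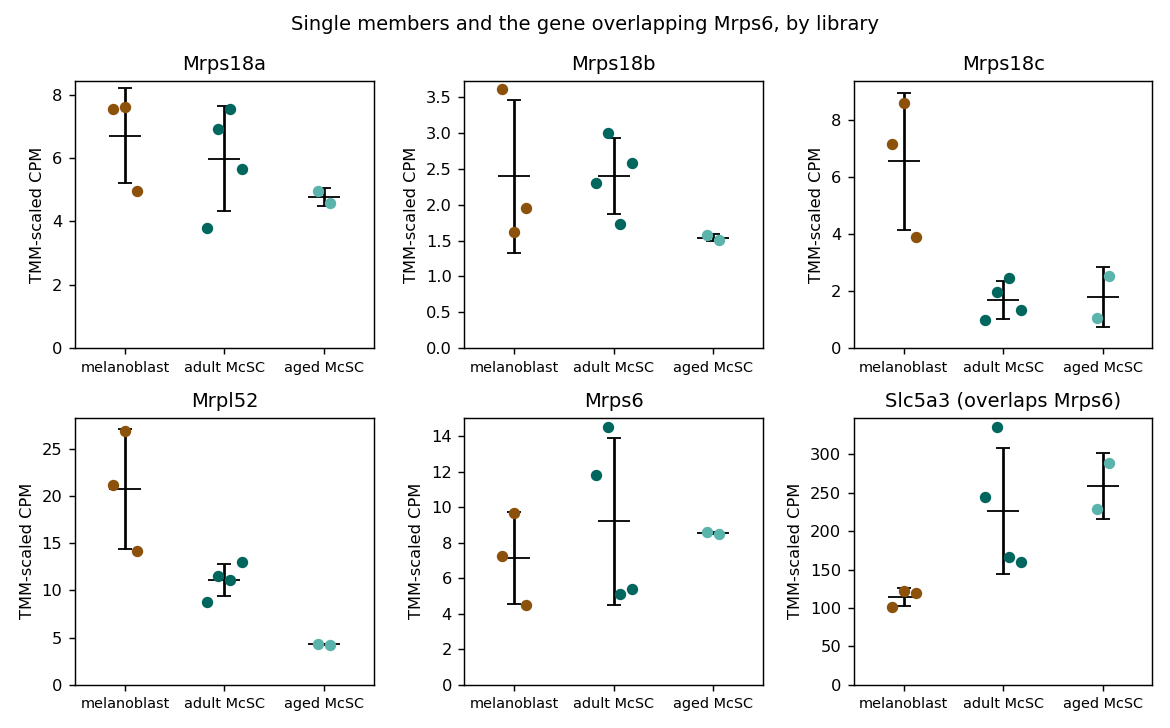
Points are libraries at the 3 stages, in TMM-scaled CPM, with the mean (wide bar) and SD (whiskers) of each stage, for 5 members and for Slc5a3. Mrps18c and Mrpl52 separate adult McSC from melanoblasts, Mrps18a and Mrps18b do not, and in Mrps6 and Slc5a3 the same 2 adult libraries are the higher ones.

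The members with the smallest change also included Mrpl33 and Mrpl17. Mrpl33 had 8.65 to 9.84 CPM in adult McSC and 5.91 to 11.7 CPM in melanoblasts, and Mrpl17 had 25.5 to 30.7 CPM in adult McSC and 29.0 to 35.5 CPM in melanoblasts. Neither passed with TMM factors (log2 fold changes 0.15 and -0.22), and both were higher in adult McSC with abundant-gene factors (1.00, adjusted p = 0.0149, and 0.63, adjusted p = 0.0109). Mrps36, now known as a component of the 2-oxoglutarate dehydrogenase complex, had 2.96 to 5.56 CPM in adult McSC and 3.16 to 7.51 CPM in melanoblasts and did not pass (log2 fold change -0.40, adjusted p = 0.415).

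Mrps6, the counterpart of a bacterial small subunit protein, had the highest log2 fold change of all members and is named after its values were seen. It had 11.8, 14.5, 5.12 and 5.41 CPM in adult McSC, against 7.28, 9.70 and 4.52 CPM in melanoblasts. Adult replicates 1 and 2 were high and replicates 3 and 4 were within the melanoblast range, and the log2 fold change of 0.36 (SE 0.356) did not pass (adjusted p = 0.438). With abundant-gene factors it was 1.24 (adjusted p = 0.0178). Exons of other genes, Slc5a3 among them, cover 19.9% of Mrps6. Slc5a3, the myo-inositol transporter gene, had 243.9, 335.8, 166.6 and 159.5 CPM in adult McSC, against 101.1, 121.9 and 119.8 CPM in melanoblasts (log2 fold change 0.99, adjusted p = 0.00415). The same adult replicates were high in both genes, and how shared reads were assigned is not given in the sources used here. The Mrps6 promoter window (RefSeq, GRCm38.p6, chr16:92058086-92058385, plus strand) is shown for its run of 4 SP1 matches, in capitals, the first 2 sharing a base.
Mrps6: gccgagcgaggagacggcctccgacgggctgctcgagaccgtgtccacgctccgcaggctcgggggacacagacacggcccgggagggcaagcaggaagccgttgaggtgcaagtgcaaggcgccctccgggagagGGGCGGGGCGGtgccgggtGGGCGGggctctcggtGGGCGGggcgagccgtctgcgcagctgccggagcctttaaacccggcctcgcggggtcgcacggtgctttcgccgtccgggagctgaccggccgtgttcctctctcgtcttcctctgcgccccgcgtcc

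Promoter windows of this kind were found for 69 of the members, and their motif content was set beside that of 17492 coding genes. NRF1 letters stood in 10.1% of member windows and 2.77% of coding windows, ETS letters in 17.4% and 5.69%, and YY1 letters in 17.4% and 3.57%. The E-box was in 7.25% of member and 8.91% of coding windows, the TATA box in 7.25% and 14.8%, the CCAAT box in 39.1% and 42.3%, and SP1 in 49.3% and 49.2%. In adult McSC against melanoblasts the median log2 fold change was -1.04 with and -1.05 without ETS letters, -0.93 and -1.05 for YY1, -0.72 and -1.05 for NRF1, and -0.96 and -1.14 for SP1. It was -1.08 with and -1.04 without an E-box, -1.03 and -1.05 for the CCAAT box, and -0.97 and -1.06 for the TATA box, and none of these differences was tested. Only 7 tested members carry the NRF1 letters, of which 3 were lower with TMM factors.

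Genes that work with the mitoribosome were examined from 9 lists. The counts of each list stand beside 18.3% of all genes lower and 15.1% higher with TMM factors. With abundant-gene factors 5.36% of all genes were lower and 34.5% higher. In the abundance range of the members 25.4% were lower with TMM factors. Of the 5 mitoribosomal proteins under other symbols, 3 were lower in adult McSC and 0 higher with TMM factors (median -0.74), and none passed with abundant-gene factors (median 0.10). Dap3, a GTP-binding small subunit protein, averaged 24.3 ± 2.55 CPM in adult McSC (SD, n = 4) and 40.6 ± 3.39 CPM in melanoblasts (SD, n = 3), with an adjusted p of 0.00923 by edgeR. Aurkaip1 and Ptcd3, also of the small subunit, had log2 fold changes of -1.04 and -0.69 (adjusted p = 0.00338 and 0.0229).

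Of the 27 assembly factors, 8 were lower and 2 higher (median -0.54), and 1 lower and 4 higher with abundant-gene factors (median 0.29). Trub2, a pseudouridine synthase acting on mitochondrial RNA, had 4.75, 5.30, 5.90 and 7.04 CPM in adult McSC, against 20.3, 19.5 and 18.02 CPM in melanoblasts. The gap was wide, and its log2 fold change was -1.75 (SE 0.257, adjusted p = 1.26e-05), with -0.91 under abundant-gene factors (adjusted p = 0.0145). Noa1 and Gtpbp10, GTPases of mitoribosome assembly, and Fastkd2, which binds the large mitochondrial rRNA, had log2 fold changes of -1.37, -1.23 and -1.22. None of the 3 passed with abundant-gene factors. With nuclear totals Noa1 and Gtpbp10 passed by edgeR (adjusted p = 0.026 and 0.029) and Fastkd2 did not (adjusted p = 0.0598). The 2 that rose were Nsun4, an rRNA methyltransferase, at a log2 fold change of 0.94 (adjusted p = 0.00300), and Mtg2, a GTPase, at 0.92 (adjusted p = 0.0446), both named after their values were seen.

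Of the 14 translation factors, 5 were lower and 0 higher with TMM factors (median -0.75), and 3 lower with abundant-gene factors (median 0.094). Gfm1, the mitochondrial elongation factor that moves the ribosome along the message, had 14.7, 24.3, 19.7 and 19.6 CPM in adult McSC, against 67.5, 53.6 and 48.1 CPM in melanoblasts. It did not overlap between groups and fell by 1.52 on the log2 scale (adjusted p = 1.64e-05), or by 0.70 with abundant-gene factors (adjusted p = 0.00722). Mtif2, an initiation factor, Oxa1l, which inserts new proteins into the inner membrane, and Guf1, an elongation factor homologue, had log2 fold changes of -1.38, -1.45 and -1.27. Guf1 did not pass with abundant-gene factors (adjusted p = 0.107) but did with nuclear totals (adjusted p = 0.0301 by edgeR).

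Of the 17 mitochondrial aminoacyl-tRNA synthetases, 7 were lower and 0 higher (median -0.54), against 2 lower and 1 higher with abundant-gene factors (median 0.26). Iars2, which charges isoleucine tRNA, averaged 44.8 ± 7.65 CPM in adult McSC (SD, n = 4) and 136 ± 33.0 CPM in melanoblasts (SD, n = 3). Its log2 fold change was -1.61 (adjusted p = 6.95e-06), and -0.75 with abundant-gene factors (adjusted p = 0.000494). Lars2, at 719 to 3893 CPM in adult McSC and 4955 to 12115 CPM in melanoblasts, supplied most of the counts of this list. Yars2 and Vars2 had log2 fold changes of -0.93 and -0.87, and neither passed with abundant-gene factors. In the list of mitochondrial DNA and RNA upkeep, 13 of 20 genes were lower and 0 higher (median -0.77), and 1 lower and 2 higher with abundant-gene factors (median 0.046). Lrpprc, which stabilises mitochondrial messages, fell by 1.32 (adjusted p = 4.98e-05), and by 0.50 with abundant-gene factors (adjusted p = 0.00975). Polg, the mitochondrial DNA polymerase, Fastkd3 and Trmt10c, a subunit of mitochondrial RNase P, had log2 fold changes of -1.01, -1.11 and -0.86, and none of the 3 passed with abundant-gene factors.

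Of the 10 nuclear regulators of mitochondrial genes, 2 were lower and 2 higher with TMM factors, and 0 lower and 6 higher with abundant-gene factors, where 34.5% of all genes were higher. Gabpa and Gabpb1, the subunits of an ETS factor, had log2 fold changes of -1.14 and -1.08 (adjusted p = 0.000313 and 0.000540). With abundant-gene factors they were at -0.28 and -0.22, where neither passed (adjusted p = 0.0687 and 0.1996). With nuclear totals both passed by edgeR (-0.47 and -0.41, adjusted p = 0.0097 and 0.042). Myc, a growth regulator, had 170.6, 162.5, 156.7 and 126.5 CPM in adult McSC, against 76.6, 78.1 and 74.8 CPM in melanoblasts. Myc was higher in every adult library (log2 fold change 1.01, adjusted p = 0.00122), under abundant-gene factors also (1.85, adjusted p = 2.11e-05). Ppargc1a, a coactivator of mitochondrial gene programmes, rose by 0.58 (adjusted p = 0.0445).

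The RNA partners of the members, mt-Rnr2 and mt-Rnr1, had log2 fold changes of -1.24 and -1.16 in adult McSC against melanoblasts (adjusted p = 0.00115 and 0.00263), and -0.34 and -0.23 with abundant-gene factors, where neither passed. Among cytosolic ribosomal protein genes, 77 of 82 were lower (median -1.11) with TMM and 19 lower and 1 higher (median -0.23) with abundant-gene factors. Among nuclear-encoded oxidative phosphorylation genes, 66 of 82 were lower (median -1.20), and 25 lower and 2 higher (median -0.32) with abundant-gene factors. Ratios between lists do not depend on the scaling. The members had 64.0, 62.3, 61.8 and 62.0 counts per 1000 counts of cytosolic ribosomal protein genes in adult McSC, against 50.1, 51.7 and 65.7 in melanoblasts, so melanoblast replicate 3 lay above all adult libraries. Against 1000 counts of oxidative phosphorylation genes the members had 302.6, 271.6, 273.6 and 285.2 counts in adult McSC and 192.3, 194.9 and 235.3 in melanoblasts, with no overlap.

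**Figure D5:**
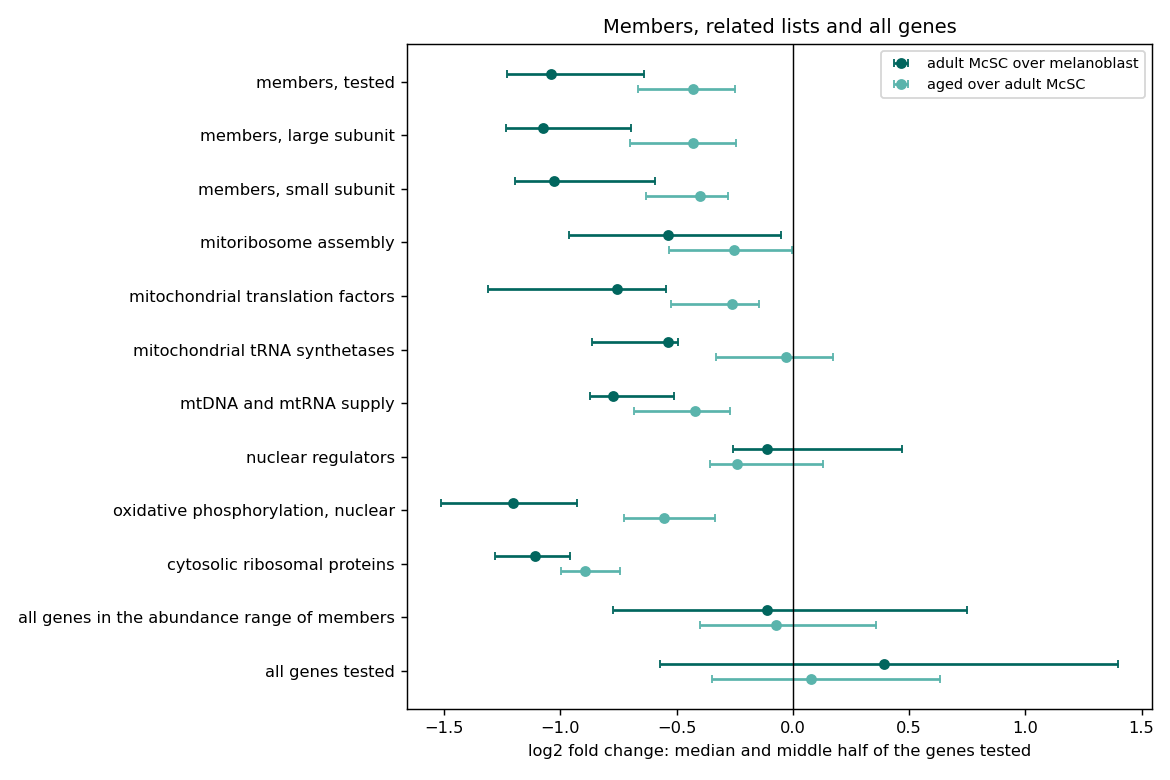
Points give the median log2 fold change, and bars the range between the quartiles, of the genes tested in each list with TMM factors, for adult McSC over melanoblasts (dark) and aged over adult McSC (light). The members lie at -1.04 and -0.43, left of all genes tested at 0.39 and 0.078, with cytosolic ribosomal proteins at -1.11 and -0.89 and oxidative phosphorylation genes at -1.20 and -0.56.

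Aged McSC were set against adult McSC, both at rest. No member passed in either direction by edgeR's quasi-likelihood test. At an unadjusted p under 0.05 by that test were 13 of 76 members. The same held for 10.2% of all genes and for 1567 of the 10711 genes in the members' abundance range. Over all genes 0.25% were lower and 0.0532% higher, and 0.429% were lower in the abundance range of the members. DESeq2 called 1 member lower, against 1.1% of all genes, and limma voom 3, against 2.1% of all genes. The median log2 fold change was -0.43, against 0.078 over all genes tested, and -0.10 against 0.37 with abundant-gene factors. With TMM factors a negative value was seen for 71 of 76 members, against 45.8% of all genes and 54.7% in the abundance range. The count was 49 with abundant-gene factors and 60 with nuclear totals. In 32 members both aged libraries lay below all adult libraries in TMM-scaled CPM, against 12.1% of all genes and 16.1% in the abundance range. In 0 members both lay above, against 15.5% of all genes.

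Mrpl52, a large subunit protein added in mitochondria, had the smallest p. It had 4.33 and 4.23 CPM in aged McSC, against 8.81, 11.5, 11.1 and 13.0 CPM in adult McSC. Both aged libraries were below the lowest adult one, with a log2 fold change of -1.37 (SE 0.322) and an adjusted p of 0.0711 by edgeR. Over the alternatives this adjusted p ran from 0.00500 with DESeq2 to 0.956 without aged replicate 2, and 7 of them called it lower. Mrpl52 (ENSMUSG00000010406) lies on chromosome 14 from 54426909 to 54429756, plus strand (mm10), and shares no exon sequence with another gene.

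Mrpl30, the counterpart of a bacterial large subunit protein, had 12.4 and 9.49 CPM in aged McSC, against 16.6 to 23.9 CPM in adult McSC (log2 fold change -0.91, adjusted p = 0.279). Mrpl20, another bacterial counterpart, had 3.36 and 2.95 CPM in aged McSC, against 4.13 to 8.77 CPM in adult McSC (log2 fold change -1.13, adjusted p = 0.306). Mrpl36 had 9.14 and 5.44 CPM in aged McSC, against 9.51 to 17.1 CPM in adult McSC (log2 fold change -0.96, adjusted p = 0.311). None of the 3 passed by edgeR, and Mrpl30 and Mrpl36 passed by limma voom (adjusted p = 0.0355 and 0.0494). The paralogues Mrps18a, Mrps18b and Mrps18c had log2 fold changes of -0.32, -0.64 and 0.077 and did not pass.

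In the related lists 0 genes passed by edgeR in aged against adult McSC. At an unadjusted p under 0.05, which 10.2% of all genes reached, were 1 of 27 assembly factors, 2 of 14 translation factors, 2 of 17 tRNA synthetases and 4 of 20 DNA and RNA upkeep genes. So were 2 of 10 nuclear regulators, 1 of 5 mitoribosomal proteins under other symbols, 0 of 2 mitochondrial rRNAs, 27 of 82 oxidative phosphorylation genes and 74 of 82 cytosolic ribosomal protein genes. The median of the cytosolic ribosomal protein genes was -0.89 and that of oxidative phosphorylation genes -0.56. The members had 75.1 and 94.4 counts per 1000 cytosolic ribosomal protein counts in aged McSC, above the 61.8 to 64.0 of adult McSC. Their share of nuclear counts was 0.0987% and 0.0862% in aged McSC, below the 0.100% to 0.113% of adult McSC. Receptor gene counts were 2014 and 2102 ppm of nuclear counts in aged McSC and 933 to 2149 ppm in adult McSC. Of the 6 Schwann cell markers 4 were lower, with sums of 126 and 201 CPM in aged McSC and 520 to 763 CPM in adult McSC. Of the 6 fibroblast markers 3 were lower, with sums of 216.7 and 109 CPM in aged McSC and 462 to 925 CPM in adult McSC. Endothelial markers had 0 of 5 past the threshold and 5 at an unadjusted p under 0.05, with sums of 36.1 and 35.1 CPM in aged McSC and 51.9 to 198 CPM in adult McSC. Keratinocyte markers, 0 of 8 past the threshold and 2 at an unadjusted p under 0.05, summed to 1299 and 1095 CPM in aged McSC and 1527 to 2664 CPM in adult McSC. Melanocyte lineage markers, 0 of 9 past the threshold and 1 at an unadjusted p under 0.05, summed to 7234 and 8465 CPM in aged McSC and 4174 to 10441 CPM in adult McSC. The part of these lists in the members' values was not tested.

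Aged McSC against melanoblasts gave 59 of 76 members lower and 0 higher by edgeR, against 20.3% of all genes lower and 20.4% higher, and 28.6% lower in the abundance range. The median was -1.44 for the members and 0.70 for all genes. Without aged replicate 2, which leaves 1 aged library, the members' median was -1.35, against 0.83 for all genes. With abundant-gene factors 10 members were lower and 4 higher, against 5.2% of all genes lower and 48.2% higher, with a median of -0.25. The 4 were Mrps5, Mrpl17, Mrps6 and Mrpl48 (named after its values were seen). This comparison shares its libraries with the other comparisons and adds no independent evidence. In 71 members both aged libraries lay below all melanoblast libraries in TMM-scaled CPM, against 25.7% of all genes and 37.7% in the abundance range. Ordered by stage, the mean CPM with TMM factors stepped down from melanoblasts through adult to aged McSC in 68 of the 76 members. The same held for 25.2% of all genes and 35.7% of genes in the members' abundance range. This order was not counted with other factors. With abundant-gene factors, log2 fold changes were negative for 48 members in adult McSC against melanoblasts and for 49 in aged against adult McSC. Summed over the members, the levels were 1305, 1418 and 972 CPM in melanoblasts, 547, 701, 633 and 669 CPM in adult McSC, and 476 and 470 CPM in aged McSC.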

How the data were processed

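The submitters' processing notes name STAR 2.5.2, Trimmomatic 0.36, SAMtools 1.9, FastQC 0.11.8 and DESeq2 1.22.2, and mm10 as the build. Which program and annotation produced the counts, and how strand and multi-mapping were handled, is not given in the sources used here. Per the labels' protocols, 20 ng of RNA was amplified before library preparation, which gives no molecule counts. What the authors deposited are unnormalized counts for each Ensembl gene. Symbols came from GENCODE M21 (49412 of 49671 identifiers). All counts were analysed with edgeR 4.0.16 under R 4.3.3 (TMM, filterByExpr, all 9 libraries in a group means model, robust quasi-likelihood F test) tested 31961 genes with Benjamini-Hochberg adjustment at 0.05. CPM are TMM scaled. Alternatives were limma 3.58.1 voom, DESeq2 1.42.0, other factors and filters, left-out libraries and a replicate block. Promoter windows came from RefSeq. The method was tested on simulated counts with few genes changed, as many up as down, which cannot test the choice of scaling factors. Pairs of libraries within a group differed beyond sampling noise (chi-square over its degrees of freedom, 15.2 to 63.3). Named members were the 8 largest falls, the 4 smallest changes, the 4 smallest p in aged against adult McSC, the 5 highest and 3 lowest levels per kb, paralogues, stalk genes, Mrpl58, Mrps36 and untested members, with up to 4 genes per related list. The members and lists were chosen with earlier results of these data known.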

Additional observations from a re-analysis of the deposited data

Results flagged for a closer look

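Within the 4 adult libraries, 5 of 64 values examined had one library far from the other 3, by Dixon's test at the 95% level, and chance alone marks about 1 in 20. Mrpl49 was at 18.9 CPM in adult replicate 2, against 12.9 to 13.6 CPM in the others. Mrps16 was at 3.38 CPM in adult replicate 3, against 1.497 to 1.71 CPM in the others. Trmt10c was at 18.4 CPM in adult replicate 1, against 22.1 to 22.5 CPM in the others. The ratio of small to large subunit counts was 0.405 in adult replicate 4, against 0.430 to 0.431 in the others. The summed level of the nuclear regulators was 630.2 CPM in adult replicate 2, against 497.5 to 507.9 CPM in the others.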

How the results depend on the processing

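With factors from abundant genes, members lower and higher were 6 and 4 in adult McSC against melanoblasts (median -0.20) and 10 and 4 in aged McSC against melanoblasts (median -0.25), and the median was -0.10 in aged against adult McSC. With nuclear totals and no factor, chosen after seeing the data, the counts were 9 and 3 (median -0.385) and 21 and 1 (median -0.53). Of all genes, 7.81% were lower and 27.9% higher in adult McSC against melanoblasts. In aged McSC against melanoblasts 8.4% of all genes were lower and 38.4% higher. The members' median was -0.20 in aged against adult McSC. With the stricter filter 24 and 29 of 65 members were lower (medians -0.52 and -0.75), against 24.5% and 25.3% of all genes. The members' median in aged against adult McSC was then -0.23. This filter tests fewer genes, and the cause of the other changes was not tested.

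Leaving out 1 library at a time, members lower ranged from 33 (without melanoblast replicate 2) to 58 in adult McSC against melanoblasts, from 0 to 1 in aged against adult McSC, and from 36 (without aged replicate 2) to 65 in aged McSC against melanoblasts. In aged against adult McSC, 1 member was lower with no filter, with DESeq2 and with only the 2 groups compared. The count was also 1 without melanoblast replicate 3 and adult replicate 2 together. In these settings 0.527%, 1.1%, 0.582% and 0.716% of all genes were lower. With limma voom 3 members were lower, against 2.1% of all genes. Replicate numbers did not pair the samples, with correlations of same-numbered libraries from -0.08 to 0.20. With the number as a replicate block, 41, 0 and 56 members were lower, against 15.9%, 0.413% and 19.5% of all genes.

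Of the single members, log2 fold changes in adult McSC against melanoblasts changed sign for Mrps18b (-0.29 with voom, -0.0023 with the replicate block, -0.21 to 0.42 with 1 library left out, -0.24 with 2 left out), Mrpl33 (-0.031 to 0.50 with 1 library left out, -0.00058 with 2 left out) and Mrps18a (0.68 with abundant-gene factors, 0.32 with the stricter filter, 0.50 with nuclear totals, -0.34 to 0.094 with 1 library left out). In that order of settings, Mrpl17 had 0.63, 0.27 and 0.44 and Mrps36 had 0.46, 0.086 and 0.28, while Mrpl20 had 0.31 with abundant-gene factors and 0.13 with nuclear totals. The aged group has 2 libraries, which limits that comparison.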

Other observations

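Along the genome the members lay on 17 chromosomes, with 11 of them on chromosome 11. Mrpl46 and Mrps11 were the only neighbouring pair found to overlap, on chromosome 7 by 413 bases and on opposite strands. Across the 76 tested members, the log2 fold change of adult McSC over melanoblasts had a Spearman rho of -0.036 with mean log2 CPM and of 0.24 with exon length, both across genes that share the same libraries.

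Mrpl14 and Mrps22 had the highest log2 fold changes in aged against adult McSC, at 0.34 and 0.29 (adjusted p = 0.866 and 0.768 by edgeR), and are named after their values were seen. Of the 76 tested members, 12 were lower in adult McSC in none of the settings run.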
